A study of Mus musculus with 4 samples.

Results

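The genes described here build the synapses that use GABA or glycine in the mouse brain. The list held 29 genes for GABA synthesis and breakdown, GABA and glycine transport, GABA-A, GABA-B and glycine receptors and the inhibitory scaffold. A listed gene was taken where a probe on the arrays carried an accession of that gene, which 28 of the 29 had, among 18346 named genes with a probe. No probe was matched by accession to Slc6a5, the neuronal glycine transporter, so its signal was not analysed here. Gene names given in the array files were not searched. Of the 28, 22 passed the filter on dim probes and were tested, and all 22 were well above background on every array. Total RNA was measured at postnatal day 14 from mouse tissue labelled as thalamus and hypothalamus. The dark-reared group (2 samples) came from dams caged behind black plastic from 1 to 4 days before they gave birth, with care under dim red light until sampling, and the control group (2 samples) lived on 12 h of light and 12 h of dark. The labels name no strain, sex, genotype or number of animals per sample, and call the samples biological replicates. The p-values below measure the spread between these samples.

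GABA and glycine are the fast inhibitory transmitters of the brain. Glutamate decarboxylase makes GABA, a vesicular transporter loads both transmitters, and plasma membrane transporters on neurons and glia clear them. GABA-A and glycine receptors are chloride channels built of several subunits, many of them anchored by gephyrin, while GABA-B receptors act through G proteins. In the adult thalamus, relay cells receive GABA from the reticular nucleus and carry extrasynaptic GABA-A receptors that hold the α4 and δ subunits. Hypothalamic neurons also release GABA widely.

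Each value is the log2 signal of a probe minus the 75th percentile of its array, given for dark-reared 1 and 2 and then for control 1 and 2. Dark-reared 1 and control 1 each had a slide of their own, while dark-reared 2 and control 2 shared a slide. The difference between those 2 arrays is called the difference within the shared slide. The arrays differed in which brain region their markers stood for. The signals of 14 of 15 listed thalamus markers, each relative to the array's 75th percentile, summed to 16.1 and 39.6 in the dark-reared samples, against 75.1 and 21.6 in the controls. Those of 8 of 15 hypothalamus markers summed to 13.1 and 40.9, against 34.1 and 27.6 in the controls, and 9 and 11 of the 14 hypothalamus genes with a probe were well above background in the dark-reared samples, against 12 and 8 in the controls. Among the rest, the defining hypothalamic genes Sim1 and Otp were well above background on 0 arrays and Fezf1, Nr5a1, Hmx2 and Hmx3 on 2 arrays each. The 13 striatum markers summed to 423 and 135 in the dark-reared samples, against 158 and 379 in the controls, although the labels name no striatum. The 10 oligodendrocyte markers averaged 0.66 and -1.30 from their 4-array mean in the dark-reared samples, against 0.75 and -0.11 in the controls. The 13 cortex and hippocampus markers averaged 0.44 and 0.11 in the dark-reared samples, against -0.08 and -0.47 in the controls. Of them, 5 had both dark-reared values above both controls and 0 had both below (38.5% without overlap, against 19.1% of all genes). The 7 tested choroid plexus markers averaged 0.99 and 0.31 in the dark-reared samples, against 0.87 and -2.17 in the controls. The part of these lists in the synapse gene values was not tested. Xist, expressed from the inactive X of females, was well above background in dark-reared 1 and control 1 and in neither of the other arrays, while the Y-linked Ddx3y was well above background in dark-reared 1, dark-reared 2 and control 2. In bulk tissue, fewer cells of a type and less RNA per cell cannot be told apart.

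None of the 22 tested synapse genes differed between dark-reared and control tissue at an adjusted p under 0.05 (limma, Benjamini-Hochberg over 21644 genes, of which 14323 were named and 7321 were probes without a symbol, each counted as a gene), against 0% of all genes tested. At an unadjusted p under 0.05 the count was 1 of the 22, Gabrr1, against 1.25% of all genes. The lowest adjusted p of any gene was 0.303, and that of every synapse gene was 1.00. Both dark-reared values lay below both control values for 3 of the 22 (13.6%), Gabrr1, Gabrb2 and Gabbr2, and above them for 0 of the 22. Over all genes, 19.1% had groups that did not overlap, and 9.58% did so with the dark-reared group lower. The group mean was lower in dark-reared tissue for 15 of the 22 and higher for 7, against 51.9% lower over all genes. Their median log2 difference was -0.08, against -0.01 over all genes, and within the shared slide it was 0.01. A 2-fold difference without overlap was met by 0 of the 22, against 1.21% of all genes. For 2 samples in each group, 0.333 is the smallest p of an exact two-sided permutation test.

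**Figure D1:**
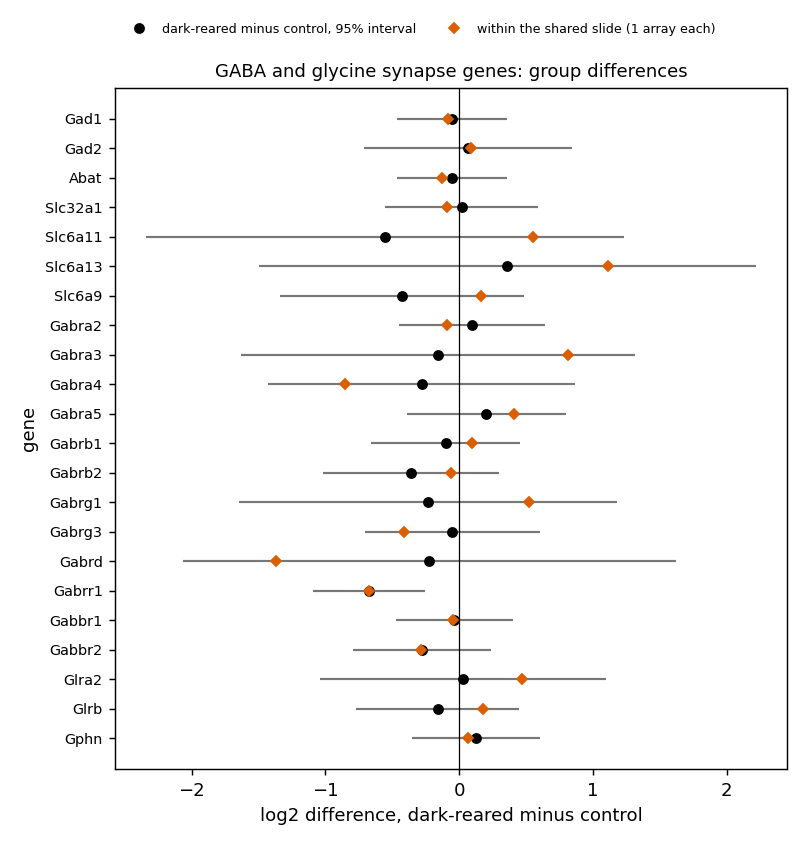
Log2 difference, dark-reared minus control, of the 22 tested synapse genes (horizontal axis) by gene (vertical axis), with the 95% interval from limma as a bar and the difference within the shared slide as a separate mark. The differences lie between -0.67 and 0.36, and the Gabrr1 interval alone does not reach 0.

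Gaps between samples of a group were wide beside the group differences, for these genes and over the whole array. The median gap between the 2 dark-reared arrays was 0.43 over the 22 genes and that between the 2 control arrays 0.24, while the median size of the group difference was 0.16. Over all genes tested these medians were 0.26, 0.21 and 0.11. The range over the 4 arrays exceeded 1, a 2-fold span, for 7 of the 22 (31.8%), against 15.9% of all genes. Dark-reared 1 held the lowest value for 13 of the 22 (59.1%), against 28.4% of all genes. Relative to the 4-array mean, the 22 genes averaged -0.23 and 0.10 in the dark-reared samples and 0.04 and 0.08 in the controls. Within the shared slide, 8 of the 22 had the sign opposite to that of their group difference.

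**Figure D2:**
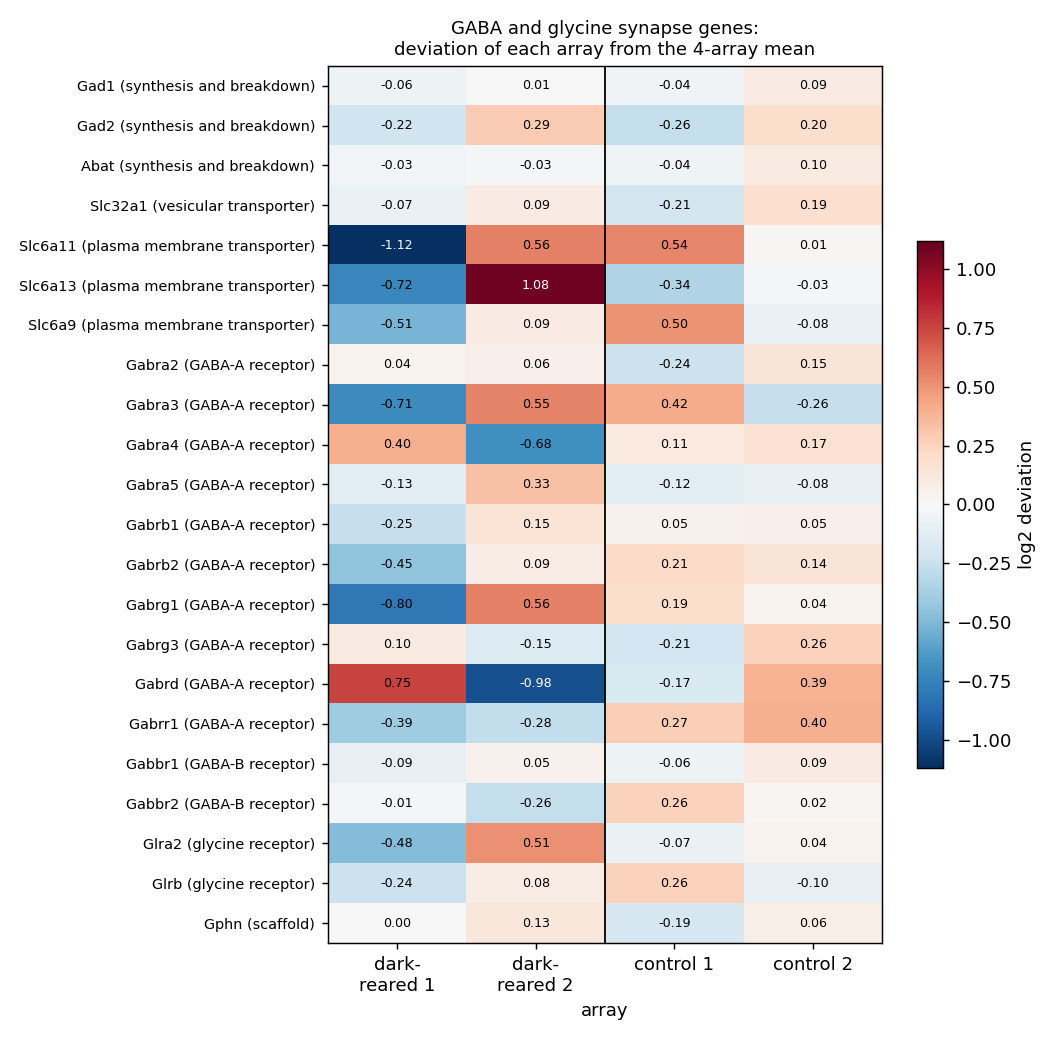
Deviation in log2 of each array (columns, dark-reared left and control right of the line) from the 4-array mean of each synapse gene (rows, ordered by role). The deepest colours stand in the 2 dark-reared columns, where Slc6a11, Slc6a13, Gabrd, Gabra4, Gabra3 and Gabrg1 take opposite signs.

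Of the enzymes that make and break down GABA, Gad1 and Abat had nearly level signals, while Gad2 and the vesicular transporter Slc32a1 varied about as much between arrays as other genes. Gad1 (NM_008077), the larger glutamate decarboxylase, which makes most of the brain's GABA, read 4.08 and 4.14 in dark-reared tissue and 4.10 and 4.23 in controls. All 4 values lay within 0.15, a span below which only 9.26% of tested genes fell. The group difference was -0.05 ± 0.15 (SE, limma unadjusted p = 0.748). The second Gad1 probe read 3.70 and 3.75 in dark-reared tissue and 3.84 and 4.01 in controls, a difference of -0.20 without overlap and larger than that of the probe used. Abat, the transaminase that degrades GABA, was as level, with 4.45 and 4.45 in dark-reared tissue and 4.43 and 4.58 in controls. Its difference was -0.06 ± 0.15 (SE). Gad2, the smaller decarboxylase, found at nerve terminals, read 3.98 and 4.48 in dark-reared samples and 3.93 and 4.40 in controls. Its range of 0.55 was wider than that of 62.7% of tested genes. In both groups sample 2 was the higher, and the group difference was 0.07 ± 0.28 (SE, limma unadjusted p = 0.820). The other Gad2 probe differed in the opposite direction. Slc32a1 (NM_009508), the vesicular transporter for GABA and glycine, read 6.57 and 6.74 in dark-reared tissue, inside the 6.44 and 6.83 of the controls. Its difference was 0.02 with a 95% interval from -0.55 to 0.59, and 46.5% of tested genes had a smaller range. The 95% intervals ran from -0.46 to 0.36 for Gad1 and from -0.71 to 0.85 for Gad2, so that differences of these sizes were not distinguishable from 0 here.

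The plasma membrane transporters, which remove GABA and glycine from the extracellular space, spread far more between arrays. Slc6a11 (NM_172890), the GABA transporter GAT3 of astrocytes, read 0.39 and 2.07 in dark-reared tissue, against 2.05 and 1.52 in controls. Dark-reared 1 alone was low, and dark-reared 2 was at the top of the control values. The difference was -0.55 ± 0.64 (SE, limma unadjusted p = 0.438), and within the shared slide it was 0.55. Without dark-reared 1 it was 0.29. The second Slc6a11 probe was also lowest in dark-reared 1, with -2.42 and -1.26 in dark-reared tissue and -1.24 and -1.48 in controls. Agt, which is high in astrocytes of the diencephalon and had the largest group difference of the astrocyte markers, read 1.38 and 3.63 in dark-reared tissue and 4.19 and 2.63 in controls. The 11 astrocyte markers as a list averaged -0.17 and 0.12 in dark-reared samples and 0.20 and -0.15 in controls, and they did not run together: 4 were lowest and 3 were highest in dark-reared 1. The thalamus and hypothalamus marker sums given above were likewise lowest in dark-reared 1, and their part in the Slc6a11 values was not tested.

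Slc6a13, the GABA transporter GAT2 known from the meninges, read -1.28 and 0.53 in dark-reared tissue, against -0.89 and -0.58 in controls. The dark-reared samples thus stood on both sides of the controls, at the widest range of all 22 genes (1.81, above that of 95.3% of tested genes). The group difference was 0.36 ± 0.67 (SE, limma unadjusted p = 0.618), and it was -0.54 without dark-reared 2. Its second probe ran alike, with -1.67 and 0.11 in dark-reared tissue and -1.35 and -1.02 in controls. Aldh1a2, a marker of the meninges, read -3.14 and -0.66 in dark-reared tissue and -2.09 and -2.06 in controls. The summed signals of all 10 meninges and vessel markers were 32.6 and 36.7 in dark-reared tissue and 34.2 and 32.9 in controls. As a list they averaged -0.25 and 0.28 from their 4-array mean in dark-reared samples and 0.06 and -0.09 in controls. These 10 markers did not run together. In dark-reared 1, 4 were lowest and 3 were highest, and in dark-reared 2, 3 were lowest and 5 were highest. Their part in the Slc6a13 values was not tested.

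Slc6a9 (NM_008135), the glycine transporter GlyT1 that is found mostly on glia, read 3.83 and 4.44 in dark-reared tissue, against 4.85 and 4.27 in controls. Control 1 was highest and dark-reared 1 lowest, and the other pair overlapped. The difference was -0.43 ± 0.33 (SE, limma unadjusted p = 0.263), and on the shared slide alone it was 0.16.

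Of 10 tested GABA-A receptor subunits, 8 had a lower mean in dark-reared tissue, with a median difference of -0.19 and 0 called. The lowest p of the 22 genes was that of Gabrr1 (NM_008075), which encodes the ρ1 subunit known from retinal bipolar cells. Its processed signals were 169 and 178 in dark-reared tissue and 264 and 281 in controls. On the log2 scale these were -2.24 and -2.12 in dark-reared tissue, against -1.57 and -1.44 in controls. Both dark-reared samples were lower than both controls, and the replicates of each group lay close together. The means were -2.18 ± 0.08 and -1.50 ± 0.09 (SD, n = 2 each). The difference was -0.67 ± 0.15 (SE, a fold of 0.627), with a 95% interval from -1.09 to -0.25. By limma, p was 0.011 before and 1.00 after adjustment, and the difference was -0.68 within the shared slide. Leaving out each array in turn gave -0.73 to -0.61. Gabrr2, its direct neighbour on chromosome 4 and the ρ2 subunit, stood well above background on none of the arrays.

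The promoter of Gabrr1 is printed because Gabrr1 is the one synapse gene whose interval left out 0. The window runs from 250 bases before to 50 bases after the RefSeq start, at chr4:33132306-33132605 of GRCm38.p6 on the plus strand, and the capitals mark TGACG, the half-site of the cAMP response element.
Gabrr1: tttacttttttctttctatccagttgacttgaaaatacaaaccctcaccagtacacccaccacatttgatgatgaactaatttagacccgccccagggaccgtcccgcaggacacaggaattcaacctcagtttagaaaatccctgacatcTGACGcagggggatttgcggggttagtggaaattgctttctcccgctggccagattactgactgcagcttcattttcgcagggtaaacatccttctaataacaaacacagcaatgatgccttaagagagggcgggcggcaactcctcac
The half-site lies 99 bases before the start. Searched on both strands, TGACG or its complement CGTCA was held by 20.8% of 32851 RefSeq promoters of this length and by 6 of 35 promoters of 26 matched synapse genes. The whole element TGACGTCA, which contains the half-site, was in 1.79% of all promoters and in 0 of the 35. GCGGGGGCG, bound by EGR factors, was in 2.91% of all promoters and in 2 of the 35, those of Gad1 and Glra3. TATAAA was in 13.6% of all and in 5 of the 35. A match describes letters and not a bound site.

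Gabrb2 (NM_008070), the β2 subunit of the most abundant synaptic receptors, read 2.97 and 3.50 in dark-reared tissue, against 3.63 and 3.56 in controls. The groups did not overlap, but dark-reared 2 lay close to the controls, with a difference of -0.06 within the shared slide. The difference was -0.36 ± 0.24 (SE, limma unadjusted p = 0.204). Both other Gabrb2 probes also had lower means in dark-reared tissue, at -0.14 without overlap and at -0.07 with overlap.

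Gabrd (NM_008072), the δ subunit of extrasynaptic receptors, and Gabra4 (NM_010251), the α4 subunit that pairs with it, shared a pattern over the dark-reared arrays. Gabrd read 4.29 and 2.56 in dark-reared tissue, against 3.37 and 3.93 in controls. Gabra4 read 4.12 and 3.03 in dark-reared tissue, against 3.83 and 3.88 in controls. Both were highest in dark-reared 1 and lowest in dark-reared 2, so that the dark-reared samples enclosed the controls. The Gabrd difference was -0.22 ± 0.66 (SE, limma unadjusted p = 0.751), -1.37 within the shared slide and 0.64 without dark-reared 2. The Gabra4 difference was -0.28 ± 0.41 (SE, limma unadjusted p = 0.533), -0.85 within the shared slide and 0.26 without dark-reared 2. As a list, striatal markers were also higher in dark-reared 1 than in dark-reared 2, and they were higher in control 2 than in control 1. Gabrd had the same order in both groups, while Gabra4 was nearly equal in the controls. Ppp1r1b, the phosphatase inhibitor DARPP-32 of striatal projection neurons, read 3.65 and 1.56 in dark-reared tissue and 1.86 and 3.17 in controls. The whole striatum list, 13 of 14 genes tested and each with a range over 1, averaged 0.86 and -0.83 in dark-reared samples and -0.66 and 0.63 in controls. Its part in the Gabrd and Gabra4 values was not tested.

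Gabra3, the α3 subunit, made by neurons of the thalamic reticular nucleus, read -0.43 and 0.84 in dark-reared tissue, against 0.70 and 0.03 in controls. Its difference was -0.16 ± 0.53 (SE, limma unadjusted p = 0.779), and it was 0.48 without dark-reared 1. Gabrg1, the γ1 subunit, read 0.18 and 1.54 in dark-reared tissue, against 1.17 and 1.02 in controls. Its difference was -0.24 ± 0.51 (SE, limma unadjusted p = 0.667), and it was 0.45 without dark-reared 1. For both genes dark-reared 1 was the lowest sample and dark-reared 2 the highest, the reverse of Gabrd and Gabra4. Slc17a6, the glutamate transporter of thalamic and hypothalamic neurons, also ran low in dark-reared 1, with -1.0 and 3.43 in dark-reared tissue and 3.89 and 1.64 in controls, and its part was not tested. Gabra3 is X-linked, and the arrays with Xist signal, dark-reared 1 and control 1, held its lowest value and one near its highest. These arrays were not alike in Ddx3y, which was well above background in dark-reared 1 and not in control 1. The part of sex was not tested.

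Gabrg1, Gabra2, Gabra4 and Gabrb1 lie in this order on chromosome 5, with 1 other protein-coding gene between Gabra2 and Gabra4 in RefSeq. These neighbours did not all share an array pattern. Gabra2, the α2 subunit, read 0.51 and 0.53 in dark-reared tissue and 0.23 and 0.62 in controls. Gabrb1, the β1 subunit, read 2.02 and 2.43 in dark-reared tissue and 2.32 and 2.33 in controls. Gabrg1 and Gabrb1 were both lowest in dark-reared 1 and highest in dark-reared 2, while Gabra4 was highest in dark-reared 1. The promoters of Gabrg1, Gabra2 and Gabra4 are printed to set these differing genes side by side, with capitals on the CCAAT box, read as ATTGG where it lies on the other strand. They are from RefSeq (GRCm38.p6), all on the minus strand, at chr5:70842568-70842867, chr5:71095800-71096099 and chr5:71658259-71658558.
Gabrg1: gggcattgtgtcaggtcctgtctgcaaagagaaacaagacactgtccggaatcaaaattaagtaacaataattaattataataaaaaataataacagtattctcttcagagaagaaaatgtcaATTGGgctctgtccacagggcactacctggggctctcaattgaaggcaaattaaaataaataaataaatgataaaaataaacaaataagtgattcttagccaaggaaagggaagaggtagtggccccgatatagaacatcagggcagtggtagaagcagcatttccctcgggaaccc
Gabra2: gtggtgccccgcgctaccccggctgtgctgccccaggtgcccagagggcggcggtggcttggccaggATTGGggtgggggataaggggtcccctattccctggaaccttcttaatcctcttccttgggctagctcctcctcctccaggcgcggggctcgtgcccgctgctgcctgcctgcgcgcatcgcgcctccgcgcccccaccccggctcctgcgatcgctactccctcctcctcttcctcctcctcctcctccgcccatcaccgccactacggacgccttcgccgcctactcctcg
Gabra4: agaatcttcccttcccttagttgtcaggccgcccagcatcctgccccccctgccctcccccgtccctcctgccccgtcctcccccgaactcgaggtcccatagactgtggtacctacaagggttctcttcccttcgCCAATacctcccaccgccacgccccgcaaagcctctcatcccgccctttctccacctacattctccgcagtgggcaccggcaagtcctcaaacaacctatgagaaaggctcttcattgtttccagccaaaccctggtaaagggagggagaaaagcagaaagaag
Each held 1 CCAAT box, 127, 183 and 114 bases before the start of Gabrg1, Gabra2 and Gabra4. CCAAT on either strand was in 37.4% of all promoters and in 14 of the 35 synapse gene promoters. Neither of the RefSeq windows of Gabrb1 held these letters.

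Of the other GABA-A subunits, Gabra5, the α5 subunit of extrasynaptic receptors, read 0.29 and 0.74 in dark-reared tissue, against 0.29 and 0.33 in controls. Its difference was 0.20 ± 0.21 (SE, limma unadjusted p = 0.399), and dark-reared 2 alone was high. Gabrg3, the γ3 subunit and the neighbour of Gabra5 on chromosome 7, read -3.15 and -3.41 in dark-reared tissue, against -3.46 and -2.99 in controls. Its groups overlapped.

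**Figure D3:**
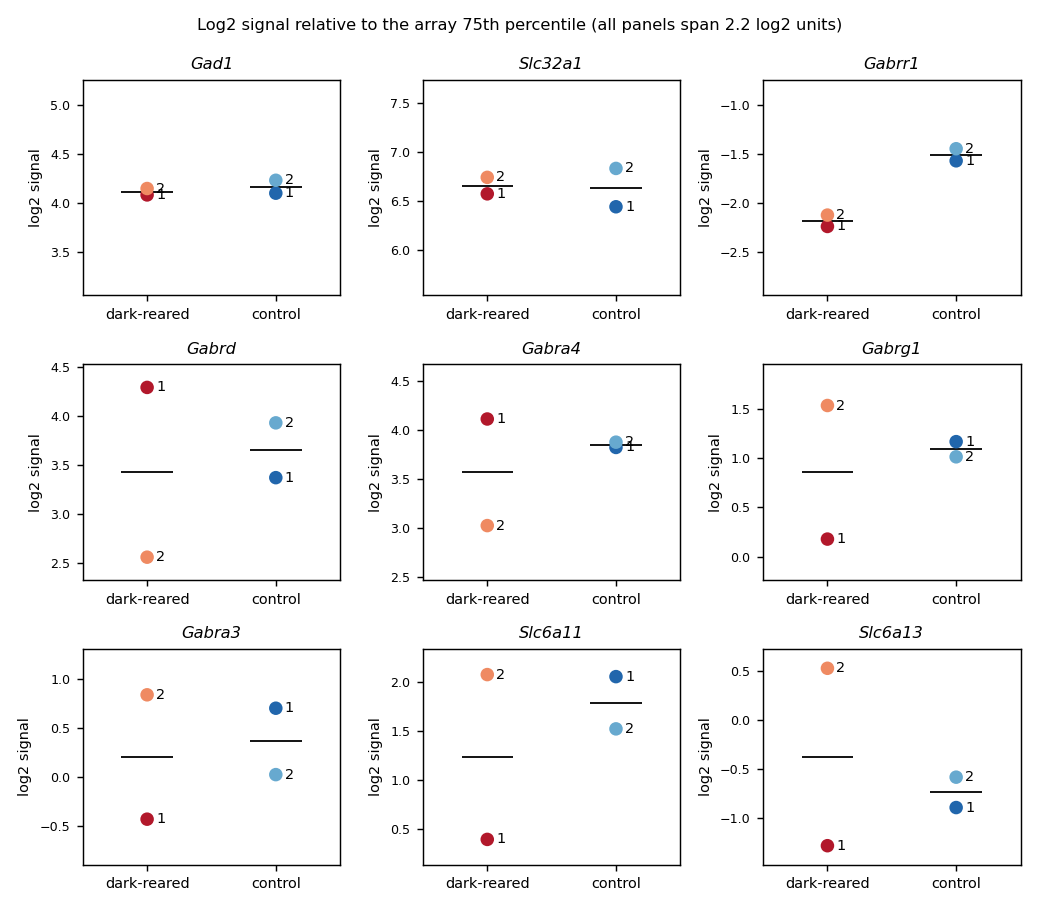
Log2 signal relative to the array's 75th percentile (vertical axis) on each of the 4 arrays for selected synapse genes, dark-reared left of control, with points for samples and bars for group means. Gad1 is level, Slc32a1 overlaps between the groups, Gabrr1 separates them, and Slc6a11, Slc6a13 and Gabrd spread widest between the 2 dark-reared samples.

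The metabotropic GABA-B receptor is a pair of subunits, of which Gabbr1 binds GABA and Gabbr2 couples to the G protein. Gabbr1 was among the most level genes, with 4.23 and 4.37 in dark-reared tissue and 4.26 and 4.41 in controls. Its 3 probes differed in sign, and its difference was -0.04 ± 0.16 (SE). Gabbr2 (NM_001081141) read -0.21 and -0.46 in dark-reared tissue, against 0.06 and -0.18 in controls. The groups did not overlap, although dark-reared 1 and control 2 were nearly equal. The difference was -0.28 with a 95% interval from -0.79 to 0.24 (limma unadjusted p = 0.211). The other 2 Gabbr2 probes gave -0.09 and -0.12 with overlapping groups, and 0.59 and 0.44 within the shared slide, against -0.28 for the probe used.

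Of the glycine receptor genes, the β subunit Glrb, which binds gephyrin, read 1.23 and 1.55 in dark-reared tissue, against 1.72 and 1.37 in controls. Its groups overlapped, with a difference of -0.16 ± 0.22 (SE, limma unadjusted p = 0.505). Glra2, the X-linked α2 subunit of young neurons, read -0.42 and 0.58 in dark-reared tissue, against -0.01 and 0.11 in controls. The dark-reared samples again enclosed the controls. Gphn (NM_172952), which encodes gephyrin, read 2.59 and 2.72 in dark-reared tissue, against 2.40 and 2.65 in controls. Its difference was 0.13 with a 95% interval from -0.35 to 0.60 (limma unadjusted p = 0.500), and its second probe gave -0.01.

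The other 6 genes with a probe were too dim to test. Gabra6, the α6 subunit of cerebellar granule cells, and the glycine receptor subunits Glra1 and Glra3 were well above background on control 1 alone. Gabra6 read -7.33 and -5.76 in dark-reared tissue and -3.61 and -6.65 in controls. Glra1, the adult α subunit of the brainstem and spinal cord, read -7.33 and -6.15 in dark-reared tissue and -4.98 and -6.48 in controls. Glra3 read -7.38 and -5.30 in dark-reared tissue and -4.97 and -5.60 in controls. The 3 thus shared their highest value in control 1, the array on which most probes were well above background (73.3%, against 65.9% to 70.9% on the others). Gabrq, the θ subunit known from the hypothalamus and monoamine neurons, read -7.15 and -4.02 in dark-reared tissue and -3.45 and -5.08 in controls. It was well above background on dark-reared 2 and control 1. Gabre, the ε subunit, was well above background on 2 arrays by each of its 2 probes, control 1 and 1 dark-reared array that differed between the probes. Gabrr2 read -7.11 and -7.07 in dark-reared tissue and -6.41 and -6.41 in controls, all below the lowest signal counted as well above background. No fold is given for these genes. Per array, 23 and 24 of the 28 genes were well above background in dark-reared tissue, and 27 and 22 in controls.

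A further 30 genes of inhibitory synapses, for chloride transport, receptor trafficking, adhesion and glycine breakdown, were read from the same fit. Of these 27 were tested, 14 with a lower and 13 with a higher mean in dark-reared tissue, and 0 were called (limma adjusted p under 0.05). The same 0 passed an unadjusted p of 0.05, and their median difference was -0.01. Gldc, the glycine decarboxylase that breaks glycine down, came closest, with -0.49 and -0.60 in dark-reared tissue against -1.15 and -0.88 in controls. Its difference was 0.47 ± 0.17 (SE), at a limma unadjusted p of 0.052 and 1.00 after adjustment over all genes. The potassium chloride cotransporter Slc12a5, which keeps neuronal chloride low, had a difference of -0.01 ± 0.15 (SE). Its opponent Slc12a2, which loads chloride into immature neurons, read 0.38 and -0.66 in dark-reared tissue, against 0.47 and -0.24 in controls. Its higher value stood in sample 1 of both groups.

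Genes with wide spreads in this list included some that followed the arrays as Gabrd did. Insyn1, an inhibitory synapse protein that binds gephyrin, read 2.65 and 1.00 in dark-reared tissue, against 1.57 and 2.21 in controls. Shisa7, an auxiliary subunit of GABA-A receptors, read 1.75 and 0.29 in dark-reared tissue, against 0.56 and 1.47 in controls. Both were higher in dark-reared 1 and control 2, the arrays in which the striatum markers were higher, and their group differences lay between -0.07 and 0.00.

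**Figure D4:**
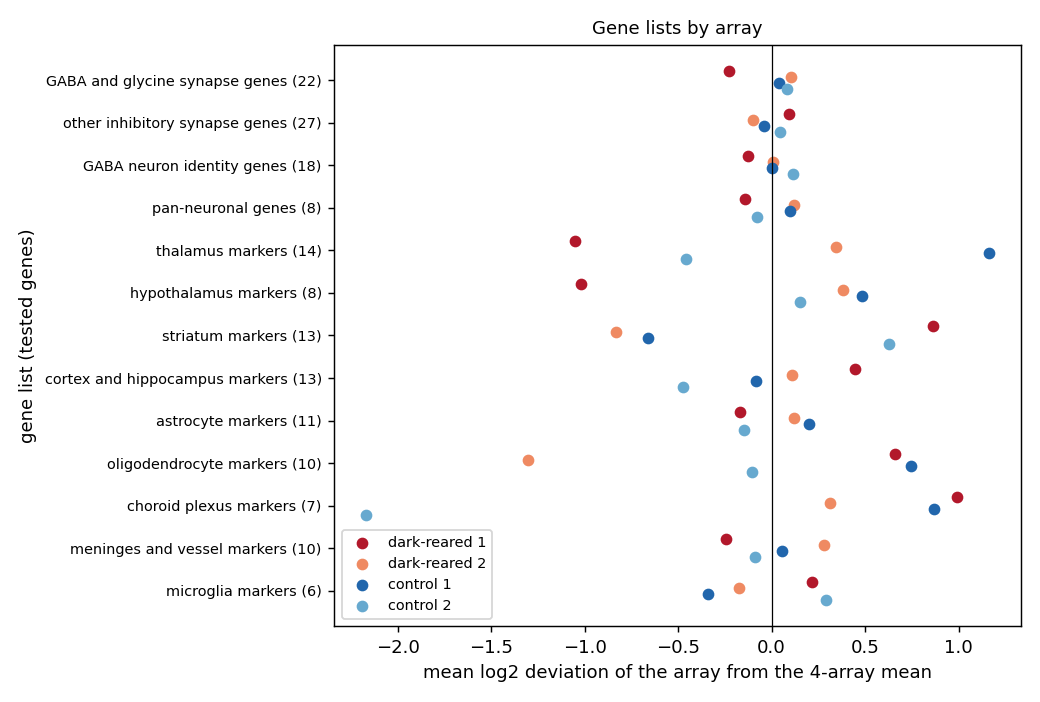
Mean deviation in log2 from the 4-array mean (horizontal axis) of each array (points) for the synapse genes and the lists of other genes and markers (vertical axis, with the number of tested genes). The synapse genes stay between -0.23 and 0.10, while thalamus markers reach -1.05 in dark-reared 1 and 1.16 in control 1, and the 2 samples of each group stand on opposite sides for the striatum.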

How the data were processed

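Total RNA of 2 dark-reared and 2 control samples was hybridised to one-colour (Cy3) Agilent arrays, 1 per sample. Per the file headers, the spot intensities are processed signals, background-subtracted and detrended, from version 10.7.3.1 of Agilent Feature Extraction, which the submitters' processing notes give as 10.7. Log2 values of each probe were deposited as well, with a median of 6.84 on each array. They correlated with the log2 processed signals of their own arrays at 0.999 to 1.00 over probes, were made in a way not given in the sources used here, and served only as an alternative.

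Of 45018 spots per array, 43379 were not controls and stood for 41174 probes. Spots called outliers by the scanner software (79 to 103 per array) were left out, none was saturated, and spots of a probe were averaged. The log2 processed signal minus the array's 75th percentile (764 to 794) was tested. A probe was kept if both arrays of 1 group or of each group read it as well above background, and the brightest one stood for its gene. RefSeq accessions gave 26910 probes a symbol (a RefSeq table of GRCm38.p6, used for names, neighbours and promoters), and 14264 had none. The array annotation is for mm9, so no probe position is given.

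The group difference of each gene was tested two-sided in R 4.3.3 by limma 3.58.1 (lmFit, then eBayes, 3.96 total degrees of freedom, Benjamini-Hochberg over 21644 genes, threshold 0.05). In simulated data for this comparison over 21644 genes, 0 of 50 genes shifted by 1 in log2 were recovered, 5 of 50 shifted by 2, 35 of 50 shifted by 4 and 47 of 50 shifted by 6. The simulation drew genes and arrays independently, with spreads from the limma prior. Deviations shared by many genes on an array, as in the marker lists, were therefore not part of it. Summed marker signals are sums of the processed signal over the array's 75th percentile. The number of arrays and the signal over background limit the precision.

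The genes and lists were chosen with earlier results of these data known. Values on every array are given for Gad1, Gad2, Slc32a1, Gphn, Gabrd, Gabra6 and Glra1, for synapse genes whose groups do not overlap, for the 12 with the largest differences and, except for Gabre, for those too dim to test. They are also given for up to 4 genes of each other list with the largest differences or spreads. Abat, Gabra2, Gabrb1, Gabrg3, Gabbr1, Glra2, Slc12a5, Xist, Ddx3y, Dlx5, Dlx6 and the hypothalamus genes too dim to test fall outside this rule and were named after their values were seen. Some genes that the rule picked are not reported here.

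Slide 2 held dark-reared 1, slide 1 held control 1 and slide 3 the other arrays, all scanned on 1 day per the file headers. Alternatives were the array median or quantile normalization, normexp background correction (offset 50), the deposited values, other filters on dim probes, outlier spots kept, eBayes with trend and robust, the mean of all detected probes or each probe alone, slide or replicate number as a block, and leaving out each array. The normexp setting used median spot signals, since the files used here hold no mean spot signals.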

Additional observations from a re-analysis of the deposited data

How the results depend on the processing

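In every setting run with a test, 0 of the synapse genes were called (limma), and the lowest adjusted p of any was 0.613. With the replicate block 0 were called, and 277 genes on the whole array had an unadjusted p under 0.05, against 271 without it. That whole-array count ran from 156 with a filter on all 4 arrays to 806 with no filter, and up to 1193 with 1 array left out. Same-numbered samples deviated with a correlation of -0.16 over all genes, so the crossed pairing was added after seeing the data: it called 0 and gave 437 such genes. Over the 22 synapse genes that correlation was -0.47. Slide as a random block was not run, since its correlation could not be estimated. The count of synapse genes without overlap (3) was 6 with normexp background, 5 of 28 with no filter and 5 of 35 probes with every probe tested. It was 9 to 16 with 1 array left out, where 1 sample stands against 2. Over all genes, the dark-reared group lay wholly above for 1926 and below for 3125 of 21644 with normexp. These counts were 2644 and 3496 of 32610 with no filter, and 2729 and 2774 of 28442 with every probe tested. They were 4955 and 5753 of 21644 without control 1 (9 synapse genes), and 6817 and 7299 without dark-reared 2 (16 synapse genes). Lower means (15) numbered 11 with normexp background and 11 within the shared slide. They numbered 21 of 28 with no filter, 25 of 35 probes with every probe tested, and 10 to 17 with 1 array left out. Over all genes, 13888 of 21644 were lower with normexp and 11198 within the shared slide. With no filter 19414 of 32610 were lower, and with every probe tested 14826 of 28442. The median difference ran from -0.17 to 0.068 with 1 array left out, and was 0.068 without dark-reared 1. In the other tested settings it ran from -0.19 with no filter to -0.034 with normexp, against -0.079 as reported. Normexp, whose background fit gave a mean of -236 in control 2 against -5.70 to 2.97 on the others, moved the median of all genes to -0.12. It reversed Gad1 (0.16), Abat (0.12), Gabrb1 (0.025) and Gabbr1 (0.12), and with outlying local backgrounds replaced Gad1 alone (0.0048). Gabbr1 was 0.0042 after quantile normalization and 0.0045 in the deposited values, and Gad2 was -0.0055 by the mean of its probes. Within the shared slide (slide as a fixed block, no test) Slc32a1 was -0.091, Slc6a11 0.55, Slc6a9 0.16, Gabra2 -0.088, Gabra3 0.81, Gabrb1 0.10, Gabrg1 0.52 and Glrb 0.18. With 1 array left out, the reversed differences ran from -0.12 to 0.015 for Gad1, -0.18 to 0.32 for Gad2, -0.13 to 0.017 for Abat, -0.18 to 0.22 for Slc32a1, -1.39 to 0.29 for Slc6a11 and -0.54 to 1.27 for Slc6a13. They ran from -0.10 to 0.29 for Gabra2, -0.79 to 0.48 for Gabra3, -0.82 to 0.26 for Gabra4, -0.026 to 0.43 for Gabra5, -0.30 to 0.10 for Gabrb1, -0.92 to 0.45 for Gabrg1, -0.29 to 0.18 for Gabrg3 and -1.09 to 0.64 for Gabrd. For Gabbr1 they ran from -0.11 to 0.040, for Glra2 from -0.47 to 0.53 and for Glrb from -0.34 to 0.016. By the probe used for each gene, 4 of the 22, Gabrr1, Gabrb2, Gabbr2 and Gphn, reversed in none of the settings run, while the second Gphn probe had the opposite sign. The causes were not tested.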

Other observations

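Genes that mark classes of GABA neurons were read from the same fit, 18 of 20 listed being tested. Their median difference was 0.01, 9 were lower and 9 higher in dark-reared tissue, and 0 were called (limma adjusted p under 0.05). At an unadjusted p under 0.05 there were 2, Pvalb and Six3, against 1.25% of all genes. Pvalb, the calcium buffer of fast-spiking interneurons and reticular thalamic neurons, read -2.09 and -3.37 in dark-reared tissue, against 0.47 and -1.19 in controls. Both dark-reared samples were lower than both controls, with a difference of -2.37 ± 0.76 (SE, limma unadjusted p = 0.036, adjusted p = 1.00) and of -2.18 within the shared slide. Six3, a transcription factor of the ventral forebrain, read -2.28 and -2.33 in dark-reared tissue, against -1.62 and -1.91 in controls, a difference of -0.54 ± 0.17 (SE).

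Dlx1 and Dlx2, forebrain transcription factors of GABA neurons named here after their values were seen, had both dark-reared values above both controls, while Dlx5 and Dlx6 overlapped and were -0.05 and -0.20 within the shared slide. Groups without overlap were found for 27.8% of the 18 genes, against 19.1% of all genes. The differences of Dlx1 and Dlx2 were 0.44 ± 0.27 and 0.47 ± 0.18 (SE, limma adjusted p = 1.00 each). Calb2, the calcium buffer calretinin, overlapped between groups, with -2.0 and 1.77 in dark-reared tissue and 1.57 and 0.19 in controls. Lhx6, a transcription factor of interneurons from the medial ganglionic eminence, also overlapped, with 0.04 and 1.24 in dark-reared tissue and -0.45 and 0.75 in controls. The striatum and thalamus marker values given above varied over the same arrays, and their part in these values was not tested.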
